A study of Mus musculus with 14 samples.

Results

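The genes described here encode collagens, laminins, nidogens, fibulins, fibrillin, elastin, matrilins, fibronectin, tenascin C and the proteoglycan biglycan. They were taken as every probe whose only platform symbol begins with a collagen, laminin, nidogen, fibrillin, fibulin or matrilin stem, or names elastin, fibronectin, tenascin C or biglycan. This gave 59 probes of 52 genes among the 7680 probes and 6542 named genes of the array. All 59 were tested, and 57 of them had a value on all 14 arrays. RNA of 11 mouse cell lines was hybridised, each array setting 1 line against a commercial pool of mouse RNA, and the title asks which genes single lines add to that pool. The blood-cell lines were macrophage, T-cell lymphoma and myeloma, the mesenchymal lines fibroblast, embryo fibroblast and myoblast, and the lines named for an organ mammary tumor, liver, kidney, testis and skin. Of the lines, mammary tumor, fibroblast and myeloma were hybridised on 2 arrays and the others on 1 (n = 1 for every value of such a line). The labels name no strain, sex, passage or treatment, and each line stands alone for its tissue. Nothing in the labels says whether repeated arrays used separate cultures. The p-values of a single line against the others rest on the spread between repeated arrays, which may therefore be technical. The p-values of comparisons among the blood-cell, mesenchymal and organ groups rest instead on the spread of line means within a group.

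Collagens are triple helices of 3 chains that are hydroxylated and folded in the endoplasmic reticulum and secreted. Fibrillar collagens bear tension in connective tissue. Type IV collagen, laminins and nidogens form the sheets of basement membrane under epithelia, around muscle fibres and along vessels. Fibroblasts and other mesenchymal cells are known as the main producers of interstitial matrix, and circulating blood cells are known to make little of it.

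Values were taken as log2 ratios of line over pool, so 0 means the level of the pool and a negative value a lower level. Sign and base are not stated in the labels or the file header. The values themselves point to this reading, as set out with the processing. Over the member probes Pearson's r between repeated arrays was 0.90 for mammary tumor, 0.59 for fibroblast and 0.77 for myeloma, across probes, which are not independent replicates. Array medians over all features lay near 0 except for embryo fibroblast (-0.50) and kidney (-0.40). The label of the pool on the first mammary tumor array carries 3 further letters, whose meaning the labels leave unsaid.

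The line names were set against marker lists. In the blood-cell lines 9 of 12 leukocyte markers were higher than in the other 8 lines (limma adjusted p under 0.05), where 1.04% of all features were. The list's median log2 ratio was 1.46 in macrophage, 0.90 in T-cell lymphoma and 0.29 in myeloma, against -4.01 to -2.33 in the other lines. Medians of the line's own list were 1.68 for macrophage genes in the macrophage line, 2.12 for T-cell genes in T-cell lymphoma, 2.43 for B and plasma cell genes in myeloma and 3.40 for muscle genes in myoblast. Liver, kidney and testis somatic lists were not high in the lines of those names (-0.15, -0.17 and -0.13), and epithelial markers had medians of -1.12 in mammary tumor and -1.35 in skin. In the liver line the epithelial median was -0.30, with Krt8 (2.46, the only 1 of the 10 markers called higher there) and Krt19 (2.72) high and Epcam (-0.97), Krt18 (-0.60) and Cdh1 (-0.55) below the pool. The epithelial list was highest in myeloma, at a median of 0.76. There Cldn7, Elf3, Epcam and Spint2 were higher than in the other 10 lines (4 of 10 markers, with 0 lower). Of all features 3.29% were called higher and 3.41% lower in myeloma. The keratin genes of the list lay below the pool there, with Krt8 at -2.25, Krt18 at -2.08 and Krt19 at -2.74. The part of this in the myeloma values of the matrix genes was not tested. Fibroblast markers had medians of -0.35 in fibroblast, -0.48 in embryo fibroblast and -0.22 in myoblast, and of -0.08 in testis and -0.20 in mammary tumor. Endothelial markers lay between -0.51 and 0.28 in all lines.

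The members varied among the lines more than most features of the array. Of the 59 probes 28 (47.5%) had an SD over the 11 line means above 1 on the log2 scale, compared with 16.5% of all features tested, and the median SD was 0.94 compared with 0.62. No member met the definition of a gene unique to a line, a log2 ratio of at least 2 there and 0 or less in every other line. The highest value on any array was 2.88 (Col5a2, mammary tumor array 1) and the lowest -6.20 (Col4a6, macrophage). A transcript made by only 1 of 11 equally pooled lines would reach 3.46.

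Set against the median of all features, the median log2 ratio of the 59 probes was lowest in the blood-cell lines. The members' median was -1.33 in macrophage, -1.16 in T-cell lymphoma and -0.59 in myeloma, where the median of all features was -0.06, -0.02 and -0.02. The other medians were 0.37 in myoblast, 0.13 in mammary tumor, 0.02 in testis, -0.11 in skin, -0.16 in fibroblast, -0.36 in liver, -0.63 in embryo fibroblast and -0.76 in kidney. As deposited, kidney and embryo fibroblast thus lay below myeloma. Relative to all features the members were at -1.28 in macrophage, -1.14 in T-cell lymphoma and -0.56 in myeloma, against -0.36 in kidney, -0.13 in embryo fibroblast and up to 0.44 (myoblast) in the other lines. Values below -2 were found for 21 members in macrophage, 23 in T-cell lymphoma and 18 in myeloma, against 0 (testis) to 14 (liver) in the other lines.

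**Figure D1:**
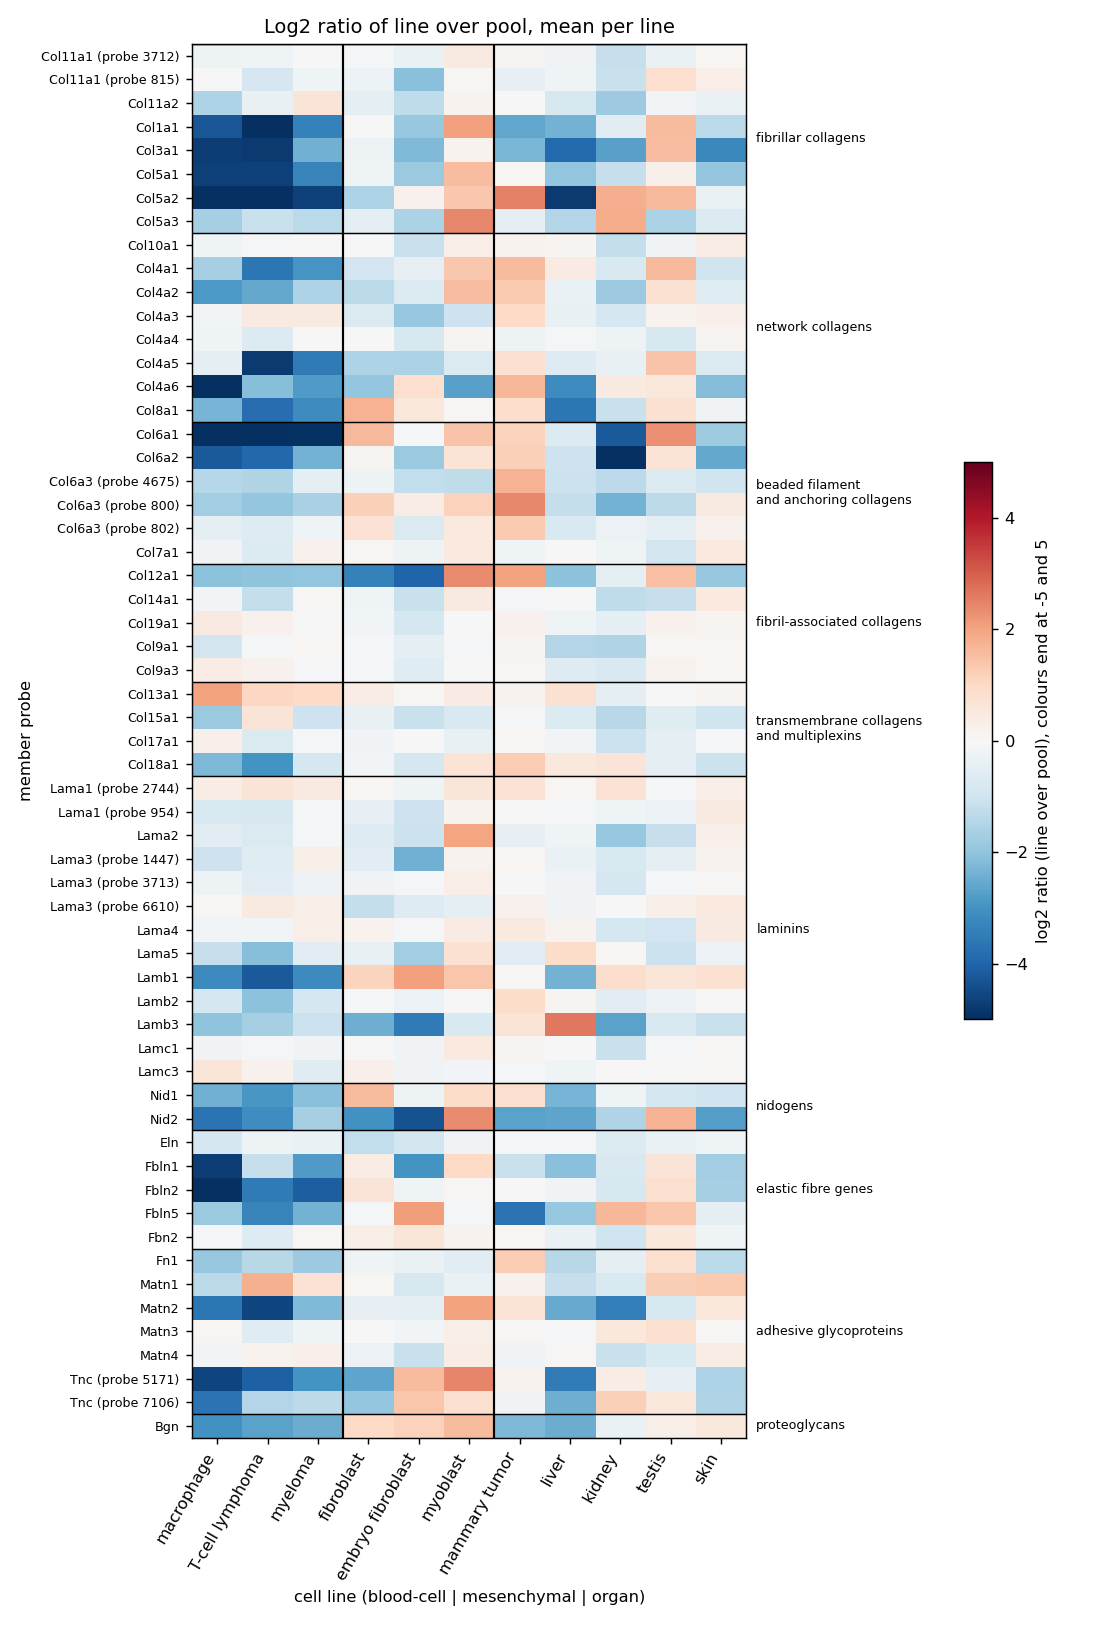
Heat map of the log2 ratio of line over pool (colour) for each of the 59 member probes (rows, by family) in the 11 cell lines (columns, blood-cell lines at the left, then mesenchymal and organ lines). Fibrillar collagens other than Col11a1 and Col11a2 were mostly blue in the blood-cell lines, Col6a1 reached -5.25 in T-cell lymphoma, and Col13a1 was 2.00 in macrophage.

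Blood-cell lines were compared with the other 8 lines on line means. Of the 59 members 9 were called lower at an adjusted p under 0.05 (15.3%, where 2.09% of all 7423 features were called lower) and 0 were called higher (1.04% of all features). The 9 were the fibrillar collagen genes Col1a1, Col5a1 and Col5a2, the microfibrillar collagen gene Col6a1, the basement membrane genes Col4a1, Lamb1 and Nid1, the fibulin gene Fbln2 and the proteoglycan gene Bgn. The median difference of the members was -0.51, against 0.11 for all features. At an unadjusted p under 0.05 there were 25 members (42.4%, where 19.965% of all features passed), 1 of them higher in the blood-cell lines. All 3 blood-cell lines lay below all other 8 for 9 members, a pattern found for 3.53% of all features: 7 of those called (all but Col5a2 and Nid1), Fn1 (fibronectin) and Lamb2 (laminin beta 2).

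Promoter windows of Lamb1, Fbln2 and Col6a1 are shown because Fbln2 and Lamb1 had the lowest adjusted p among these 9 members and Col6a1 the lowest supply from blood-cell lines, from chr12:31265043-31265342 on the plus strand for Lamb1, chr6:91212514-91212813 on the plus strand for Fbln2 and chr10:76725995-76726294 on the minus strand for Col6a1. Each holds 250 bases before and 50 after the RefSeq start site in GRCm38.p6, written 5′ to 3′ on the gene's strand. Capitals mark the CCAAT box (ATTGG where it lies on the opposite strand), the GC box GGGCGG (there CCGCCC) and the TATA box TATAAA (there TTTATA), with overlapping matches counted apart. The first and second hold GGGCGG, Lamb1 also CCAAT, and the Col6a1 window holds none of the 3 motifs.
Lamb1: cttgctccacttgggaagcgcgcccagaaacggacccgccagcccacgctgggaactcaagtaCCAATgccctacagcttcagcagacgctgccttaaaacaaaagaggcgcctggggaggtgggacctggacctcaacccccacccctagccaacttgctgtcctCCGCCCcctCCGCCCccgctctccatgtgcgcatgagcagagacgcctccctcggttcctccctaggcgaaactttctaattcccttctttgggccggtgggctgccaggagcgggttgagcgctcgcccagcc
Fbln2: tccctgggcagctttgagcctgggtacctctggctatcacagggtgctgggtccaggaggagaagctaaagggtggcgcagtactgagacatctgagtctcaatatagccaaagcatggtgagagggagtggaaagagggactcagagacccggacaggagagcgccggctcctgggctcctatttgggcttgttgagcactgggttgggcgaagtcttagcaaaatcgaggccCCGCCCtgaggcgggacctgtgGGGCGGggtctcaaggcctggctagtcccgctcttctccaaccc
Col6a1: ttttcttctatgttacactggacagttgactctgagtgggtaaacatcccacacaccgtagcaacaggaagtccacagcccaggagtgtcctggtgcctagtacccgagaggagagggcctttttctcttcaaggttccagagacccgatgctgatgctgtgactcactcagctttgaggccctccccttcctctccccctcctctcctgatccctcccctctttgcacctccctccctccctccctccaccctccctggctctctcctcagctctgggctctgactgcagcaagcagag

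Among the fibrillar collagens, Col5a2 encodes a chain of type V collagen, which starts and limits the width of collagen fibrils. It had a log2 ratio of -5.39 in macrophage, -5.34 in T-cell lymphoma and -3.55 and -5.81 on the myeloma arrays, while the other 8 lines went from -4.78 (liver) over a median of 0.78 to 2.53 (mammary tumor). The liver line thus lay among the blood-cell lines. The difference was -5.25 ± 1.22 (SE), or 37.9-fold lower in the blood-cell lines, with a limma adjusted p of 0.0368. Its partner chain gene Col5a1 had -4.65, -4.67, -3.84 and -2.88 in the same order, against -1.98 (liver) to 1.53 (myoblast) with a median of -0.70 in the other 8 lines. The groups did not overlap, and the difference was -3.57 ± 0.68 (limma adjusted p = 0.0178). Col1a1, a chain of type I collagen, the main collagen of skin, bone and tendon, had -4.26, -5.37, -3.62 and -3.15, against -2.60 (mammary tumor) to 2.05 (myoblast) with a median of -0.96. Its difference was -3.70 ± 0.90, with no overlap of line means (limma adjusted p = 0.0461).

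Col6a1 encodes a chain of the beaded filaments that tie cells to the surrounding matrix. It had -5.24 in macrophage, -5.25 in T-cell lymphoma and -4.89 and -4.995 on the myeloma arrays, against -4.19 (kidney), a median of 0.55 and 2.27 (testis) in the other 8 lines. The blood-cell arrays lay close together, and the kidney line was the nearest of the others. The difference of -5.12 ± 1.02 (34.7-fold lower in the blood-cell lines) had a limma adjusted p of 0.0205. If the 11 lines were pooled in equal parts, the 3 blood-cell lines together would supply 0.776% of the pool's Col6a1, the lowest share among all members.

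Of the basement membrane genes, Lamb1 encodes the laminin beta 1 chain. It had -3.17 in macrophage, -4.19 in T-cell lymphoma and -2.61 and -3.74 on the myeloma arrays, against -2.37 (liver), a median of 0.83 and 2.07 (embryo fibroblast) in the other 8 lines. Apart from liver, every line outside the blood-cell group stood above the pool. Its difference was -4.08 ± 0.60 (16.9-fold lower in the blood-cell lines, limma adjusted p = 0.00377). Col4a1, a chain of the basement membrane collagen, had -1.64, -3.62, -1.61 and -4.31 in the blood-cell arrays, against -1.01 (skin) to 1.61 (testis) in the other lines, and differed by -2.97 ± 0.67 (limma adjusted p = 0.0328). The myeloma arrays disagreed by more than the gap between the nearest lines of the groups, macrophage (-1.64) and skin (-1.01). Nid1, the nidogen that links laminin to collagen IV, had -2.40, -2.90, -1.19 and -2.97, against -2.32 (liver) to 1.59 (fibroblast), and differed by -2.29 ± 0.56 (limma adjusted p = 0.0482), with liver inside the range of the blood-cell lines.

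Fbln2 encodes fibulin 2, a secreted glycoprotein of elastic fibres and basement membranes, and had the lowest adjusted p among the members. It had -5.21 in macrophage, -3.53 in T-cell lymphoma and -3.67 and -4.60 on the myeloma arrays, against -1.65 (skin), a median of -0.07 and 0.81 (testis) in the other 8 lines. All 4 blood-cell arrays were below every array of the other lines, and the difference was -4.13 ± 0.49 (17.5-fold lower in the blood-cell lines, limma adjusted p = 0.00089). Bgn, which encodes the collagen-binding proteoglycan biglycan, had -3.02, -2.69, -2.27 and -2.73, against -2.49 (liver) to 1.60 (myoblast) with a median of 0.41. Its line means did not overlap, but the liver array and mammary tumor array 2 (-2.32) lay below myeloma array 1. The difference was -2.68 ± 0.60 (limma adjusted p = 0.0308).

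**Figure D2:**
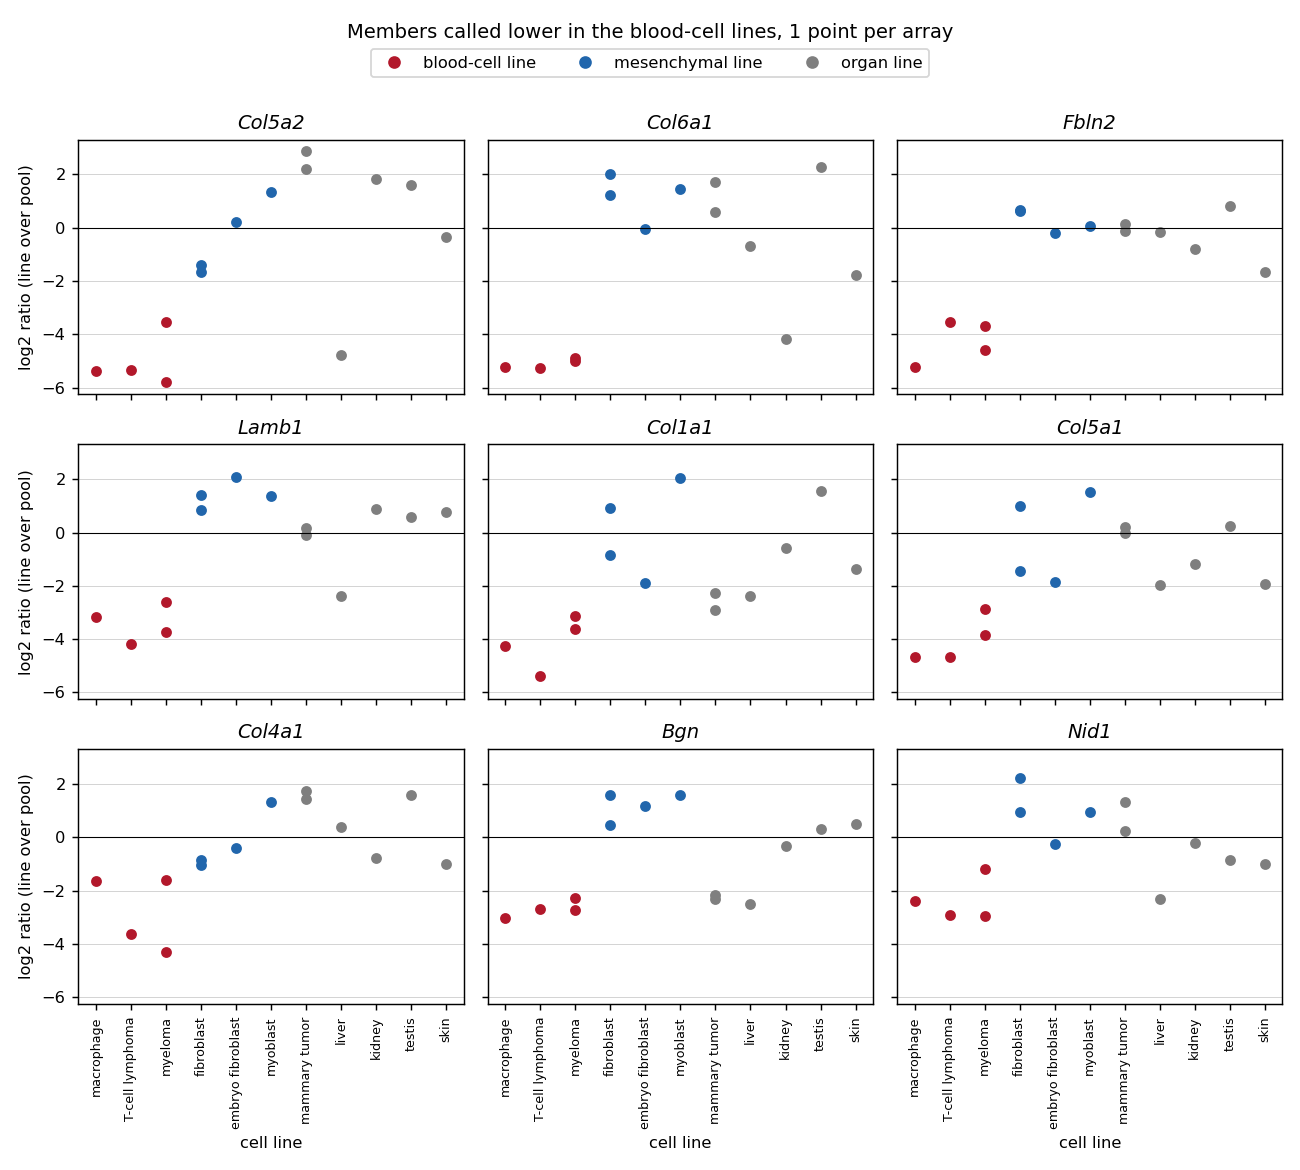
Log2 ratio of line over pool (vertical axis) on every array for the 9 members called lower in the blood-cell lines, 1 point per array, by line (horizontal axis, blood-cell lines at the left). Blood-cell arrays were low in all panels, and the liver array reached down to them for Col5a2 (-4.78), Nid1 (-2.32) and Bgn (-2.49), as did mammary tumor array 2 for Bgn (-2.32).

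Fbln2 and Lamb1 were called under all 23 alternatives of processing and left-out arrays or lines. The call was lost in 13 of these for Nid1, 12 for Col1a1, 10 for Col5a2, 8 for Col4a1, 7 for Bgn, 4 for Col6a1 and 3 for Col5a1. The count of 9 became 2 with quantile normalization and 2 without the T-cell lymphoma line. It was 4 without the macrophage line, 4 without the myeloma line, 5 without the myoblast line and 5 without the embryo fibroblast line. Such counts cover all members called in a setting and can include members outside the 9. With the run of image numbers as a random block it was 16. Shares of all features called under these alternatives are not given, so the counts describe the members alone. Image numbers fall into 5 runs, of which 2 held both kinds of line. Within the run of T-cell lymphoma with embryo fibroblast, kidney and fibroblast array 1, the differences of the 9 members were all below 0, from -5.55 to -2.95. Within the run of macrophage and myeloma with liver, testis and fibroblast array 2 they were also all below 0, from -6.03 to -1.92. The 9 had been called on these same arrays, so their sign within the runs was largely set by that choice and is no separate check. Over all 59 members the median difference was -0.42 in the run of T-cell lymphoma and -0.37 in the run of macrophage and myeloma.

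Col13a1, which encodes a membrane-bound collagen of cell adhesion sites, was the member with the opposite order. It had 2.00 in macrophage, 1.03 in T-cell lymphoma and 0.99 in myeloma, against -0.46 (kidney) to 0.77 (liver) in the other lines. By line means all blood-cell lines stood above all other lines, as for 4.27% of all features. The myeloma arrays gave 1.51 and 0.48, and array 2 lay below liver (0.77) and fibroblast array 1 (0.64). The difference of 1.15 ± 0.33 did not pass (limma adjusted p = 0.0758). With the local median of neighbouring probe numbers removed, with image runs as a block and without myeloma array 2 the blood-cell lines had 1 higher member each time.

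**Figure D3:**
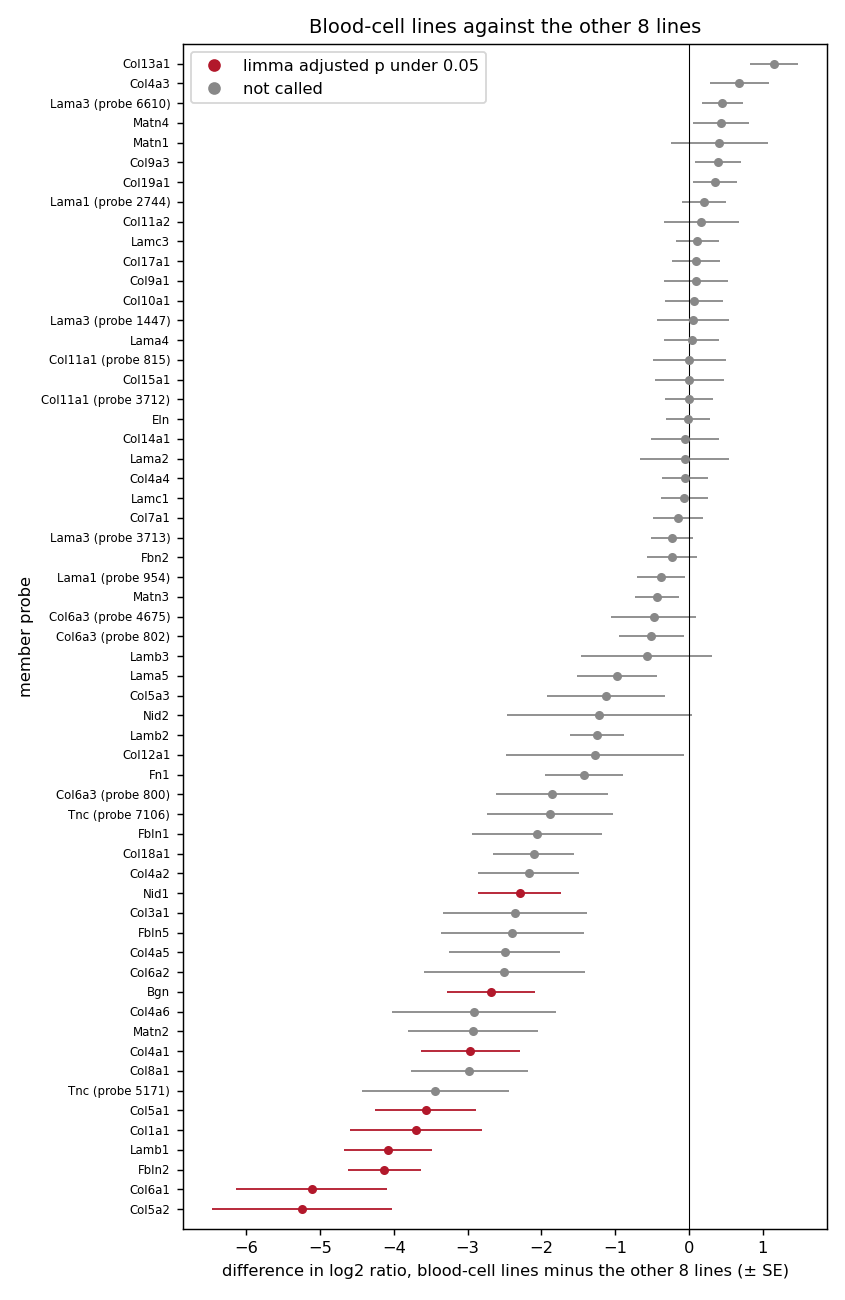
Difference in log2 ratio between the blood-cell lines and the other 8 lines (horizontal axis, points with SE) for all 59 member probes (vertical axis), red where the limma adjusted p was under 0.05. The called members lay between -5.25 and -2.29, and Col13a1 had the highest difference at 1.15.

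The calls were counted by family, with no test of a difference between families. In the blood-cell lines 3 of 8 fibrillar collagen probes were lower (median difference -1.74), 1 of 8 network collagen probes (-2.33), 1 of 6 beaded filament and anchoring probes (-1.19), 1 of 13 laminin probes (-0.06), 1 of 2 nidogen probes, 1 of 5 elastic fibre probes (-2.06) and the only proteoglycan probe. None of the 5 fibril-associated, 4 transmembrane or multiplexin and 7 adhesive glycoprotein probes passed. Among those not called, Tnc (probe 5171) differed by -3.44, Col8a1 by -2.98, Matn2 by -2.93 and Col4a6 by -2.91. The elastin gene Eln differed by -0.01 and the hypertrophic cartilage gene Col10a1 by 0.07.

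Other genes of the pathway were counted from fixed lists. Of 17 probes for 15 collagen biosynthesis genes, 4 were lower in the blood-cell lines and 0 higher, with a list median of -0.44. Of all features 2.09% were called lower and 1.04% higher, with a median difference of 0.11. The 4 probes were those of Pcolce, which enhances cleavage of procollagen (-2.78 ± 0.38, limma adjusted p = 0.0024), Plod2, a collagen lysyl hydroxylase (-2.70 ± 0.65), and both probes of Serpinh1, the collagen chaperone HSP47 (-2.81 and -2.38). Of 13 probes for 12 matrix receptor genes only Itga5, the fibronectin receptor chain, was lower (-2.53 ± 0.44, limma adjusted p = 0.0103), and 0 were higher. In the myeloma line the prolyl hydroxylase gene P3h1 was higher than in the other 10 lines while Plod2, Pcolce and 1 probe of Serpinh1 were lower. Of all features 3.29% were called higher and 3.41% lower in that line.

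The mesenchymal lines had no member called against the organ lines. At an adjusted p under 0.05 there were 0 of 59 members and 0 of 7423 features (0%), and the lowest limma adjusted p among members was 0.739. At an unadjusted p under 0.05 there were 5 members (8.47%), against 6.26% of all features. Bgn averaged 1.26 in the mesenchymal and -0.84 in the organ lines, a difference of 2.10 ± 0.64. Lamb1 differed by 1.54 ± 0.65 and Nid1 by 1.48 ± 0.61. Lower in the mesenchymal lines were the kidney glomerular chain gene Col4a3 (-1.25 ± 0.43) and Lama3 at probe 6610 (-0.93 ± 0.30). None of these passed adjustment. The lineages were mixed within themselves: Col12a1 had 2.36 in myoblast, -3.37 in fibroblast and -4.02 in embryo fibroblast.

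Each line was then set against the mean of the other 10, with the spread taken from the 3 pairs of arrays. Every line also stands among the 10 in the other comparisons, so these share their arrays. Over the 11 comparisons there were 48 calls, 18 higher and 30 lower. Including the blood-cell comparison, 23 probes of 21 genes were called at least once and 31 genes never. Arrays with the same number deviated together, as given with the processing, and the main tests of single lines did not model this. Counts with the array number as a replicate block are therefore given where they differ by more than 1.5 times. Counts with an array left out stand without the share of all features called in that setting, so they describe the members alone. Each array left out came from a pair, so such a fit took the spread of every feature from fewer pairs.

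**Figure D4:**
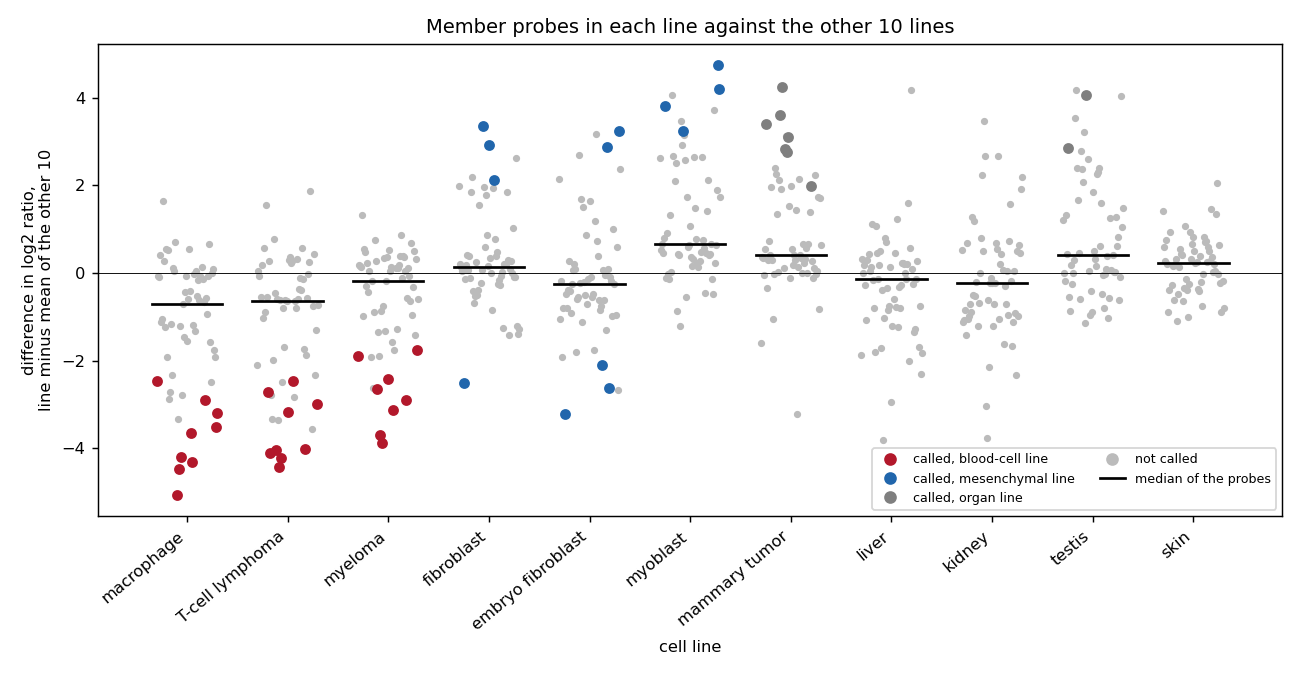
Difference in log2 ratio between a line and the mean of the other 10 lines (vertical axis) for the 59 member probes in each line (horizontal axis, blood-cell lines at the left), with called probes in colour, others in grey and a bar at the median. Calls were all lower in the blood-cell lines and all higher in the myoblast, mammary tumor and testis lines.

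The myoblast line had 4 members higher and 0 lower (0.552% and 0.242% of all features), and 15 higher with the replicate block (3.77% of all features). Nid2, the other nidogen gene, had 2.37 there and averaged -2.37 elsewhere. It was higher by 4.74 ± 0.56, or 26.7-fold (limma adjusted p = 0.0308). Tenascin C, an adhesion-modulating glycoprotein of developing and healing tissue, had 2.43 against -1.76 at Tnc probe 5171, a difference of 4.20 ± 0.45. Col12a1, which decorates collagen fibrils, was higher by 3.80 ± 0.37 and the type V chain gene Col5a3 by 3.25 ± 0.34 (limma adjusted p = 0.0259 for all 3). The basement membrane gene Lama2, the laminin chain of muscle, had 1.99 in myoblast and at most 0.24 in any other line, but was not called without the replicate block. The count was 0 without either mammary tumor array or either myeloma array, 10 without fibroblast array 2 and 9 without fibroblast array 1.

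The mammary tumor line had 7 probes of 6 genes higher and 0 lower (0.714% and 0.148% of all features), and 14 higher and 1 lower with the replicate block (2.6% and 0.62% of all features). Col5a2 had 2.88 and 2.19 on its arrays and averaged -1.71 elsewhere. It was higher by 4.24 ± 0.55, or 18.9-fold (limma adjusted p = 0.0302). Col4a6, a chain of a basement membrane collagen, had 1.34 and 2.00 against -1.93 (3.60 ± 0.49, limma adjusted p = 0.0302), and Col12a1 had 1.70 and 2.29 against -1.40 (3.40 ± 0.27, limma adjusted p = 0.014). Col6a1 was higher by 2.83 ± 0.37, and Lamb3, a chain of the laminin that anchors epithelia, by 1.99 ± 0.29. Probes 800 and 4675 of Col6a3, the large chain of type VI collagen, were higher by 3.12 and 2.77. The count was 0 without either mammary tumor array, 4 without myeloma array 1 and 3 without myeloma array 2.

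The testis line had 2 members higher and 0 lower (0.283% and 0.0674% of all features), and 7 higher with the replicate block (1.17%). Col6a1 had 2.27 there and averaged -1.79 elsewhere (4.06 ± 0.50, limma adjusted p = 0.0491), and Col12a1 had 1.495 against -1.35 (2.85 ± 0.37, same adjusted p). The fibrillar genes Col1a1 and Col3a1 stood at 1.57 and 1.55, and Col3a1, the gene of type III collagen, exceeded the pool otherwise only in myoblast (0.16). The testis count was 0 without mammary tumor array 1 or 2, myeloma array 1 or 2 or fibroblast array 1.

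The fibroblast line had 3 members higher and 1 lower (0.835% and 0.391% of all features), and 5 lower with the replicate block (1.1%). Col6a1 had 2.02 and 1.24 on its arrays against -1.73 in the other lines (3.35 ± 0.37, limma adjusted p = 0.0193). Col8a1, a short-chain collagen of vessels and the cornea, had 1.32 and 2.16 against -1.19 (2.93 ± 0.34), and Fbln2 was higher by 2.12 ± 0.31. Col12a1 had -3.33 and -3.41 against -0.87 (-2.51 ± 0.27, limma adjusted p = 0.0193). Both counts were 0 without fibroblast array 1, fibroblast array 2 or myeloma array 2. The fibroblast arrays disagreed for Col1a1 (-0.84 and 0.92) and Col5a1 (-1.45 and 0.997).

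The embryo fibroblast line had 2 members higher and 3 lower (0.418% and 1.79% of all features), and 6 higher and 7 lower with the replicate block (2.45% and 10.2%). Tnc probe 5171 had 1.57 against -1.68 in the other lines (3.25 ± 0.45, limma adjusted p = 0.0235), and Lamb1 had 2.07 against -0.81 (2.87 ± 0.49, limma adjusted p = 0.0433). Col12a1 had -4.02 against -0.80 (-3.22 ± 0.37, limma adjusted p = 0.0172), Lamb3 differed by -2.61 ± 0.39 and Lama3 (probe 1447) by -2.10 ± 0.37. The whole array lay low, and with arrays centred on their medians Lamb3 and Lama3 were no longer called. Higher calls were 0 without either mammary tumor array and 4 without either fibroblast array. Lower calls numbered 1 when mammary tumor array 1 or either myeloma array was left out, 0 when mammary tumor array 2 was, and 5 when either fibroblast array was.

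The macrophage line had 9 probes of 8 genes lower and 0 higher (2.13% and 1.94% of all features), and 15 lower and 1 higher with the replicate block (5.31% and 4.07%). Col4a6 had -6.20 there and averaged -1.14 elsewhere. It differed by -5.06 ± 0.66, or 33.3-fold lower in macrophage (limma adjusted p = 0.0157). Fbln2 differed by -4.31 ± 0.42, Fbln1, which encodes fibulin 1, by -3.64 ± 0.65 and Tnc by -3.51 and -3.19 at its probes. Col5a2, Col6a1, Lamb1 and Bgn were lower too (-4.47 to -2.46). The count was 5 without either mammary tumor array.

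The T-cell lymphoma line had 9 members lower and 0 higher (2.36% and 2.22% of all features), and 18 lower with the replicate block (6.52%). Col6a1 had -5.25 against -1.04 in the other lines (-4.21 ± 0.50, limma adjusted p = 0.0163), Col1a1 had -5.37 against -1.28 (-4.10 ± 0.64) and Col4a5, another basement membrane chain gene, had -4.79 against -0.74 (-4.04 ± 0.62). Lamb1 differed by -4.01 ± 0.49, and Col18a1, whose product carries endostatin, by -2.72 ± 0.53. Col5a2, Col8a1, Fbln2 and Tnc probe 5171 made up the rest. The count was 4 without mammary tumor array 2, 14 without fibroblast array 2 and 15 without fibroblast array 1.

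The myeloma line had 8 members lower and 0 higher (3.41% and 3.29% of all features), and 16 lower with the replicate block (7.18%). Col6a1 differed by -3.87 ± 0.37 (14.6-fold lower in myeloma, limma adjusted p = 0.00307), Col5a2 by -3.69 ± 0.55, Fbln2 by -3.13 ± 0.31 and Lamb1 by -2.89 ± 0.36. Col4a5, Col8a1, Bgn and Tnc probe 5171 were lower as well (-2.65 to -1.76). The count was 0 without myeloma array 2, and 13 without either fibroblast array.

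Liver, kidney and skin had 0 members called by limma. Among all features 0.0135% were called higher in liver, 0.0135% lower in kidney and 0% in skin. An unadjusted p under 0.05 was found for 13 members in liver (22.0%, against 8.19% of all features), 20 in kidney (33.9% against 17.4%) and 4 in skin (6.78% against 8.11%), so skin had no larger share than the array as a whole. With the replicate block liver had 1 higher member (0.31% of all features), and kidney 4 higher and 4 lower (0.997% and 3.68% of all features). The liver line held the highest Lamb3 value, 2.64 with an average of -1.54 elsewhere, but missed the threshold (limma adjusted p = 0.0675). Under equal pooling, liver would supply 56.8% of the pool's Lamb3, with shares that summed to 99.3% over the lines. In kidney Col6a1 and Col6a2 stood at -4.19 and -5.09 while Col5a2 and Col5a3 stood at 1.83 and 1.86.

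Chains of the same protein and neighbouring genes were compared over the 11 line means, which share the pool and their arrays. Col4a1 and Col4a2, whose products join in the common collagen IV molecule, correlated with r = 0.87, and with r = 0.91 over the 8 lines outside the blood-cell group. Their widest gap was in myeloma, -2.96 for Col4a1 and -1.55 for Col4a2. Col6a1 and Col6a2, neighbours that encode chains of type VI collagen, had r = 0.90 (0.96 over the 8 lines). Col5a1 and Col5a2 had r = 0.83, but 0.53 over the 8 lines, and in kidney they stood at -1.17 and 1.83. Neighbouring Col3a1 and Col5a2 had r = 0.65 (0.42 over the 8 lines) and lay at -2.27 and 2.53 in mammary tumor.

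Nidogens, fibulins and the X-linked collagen IV genes were set side by side in the same way. Nid1 and Nid2 had r = 0.26 and were 1.59 and -3.04 in fibroblast. Fbln1 and Fbln2 had r = 0.72 (0.53 over the 8 lines), with -2.99 and -0.20 in embryo fibroblast. Col4a5 and Col4a6, a pair chosen after the values were seen, had r = 0.32 and differed most in macrophage, where Col4a5 was -0.47 and Col4a6 -6.20.

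**Figure D5:**
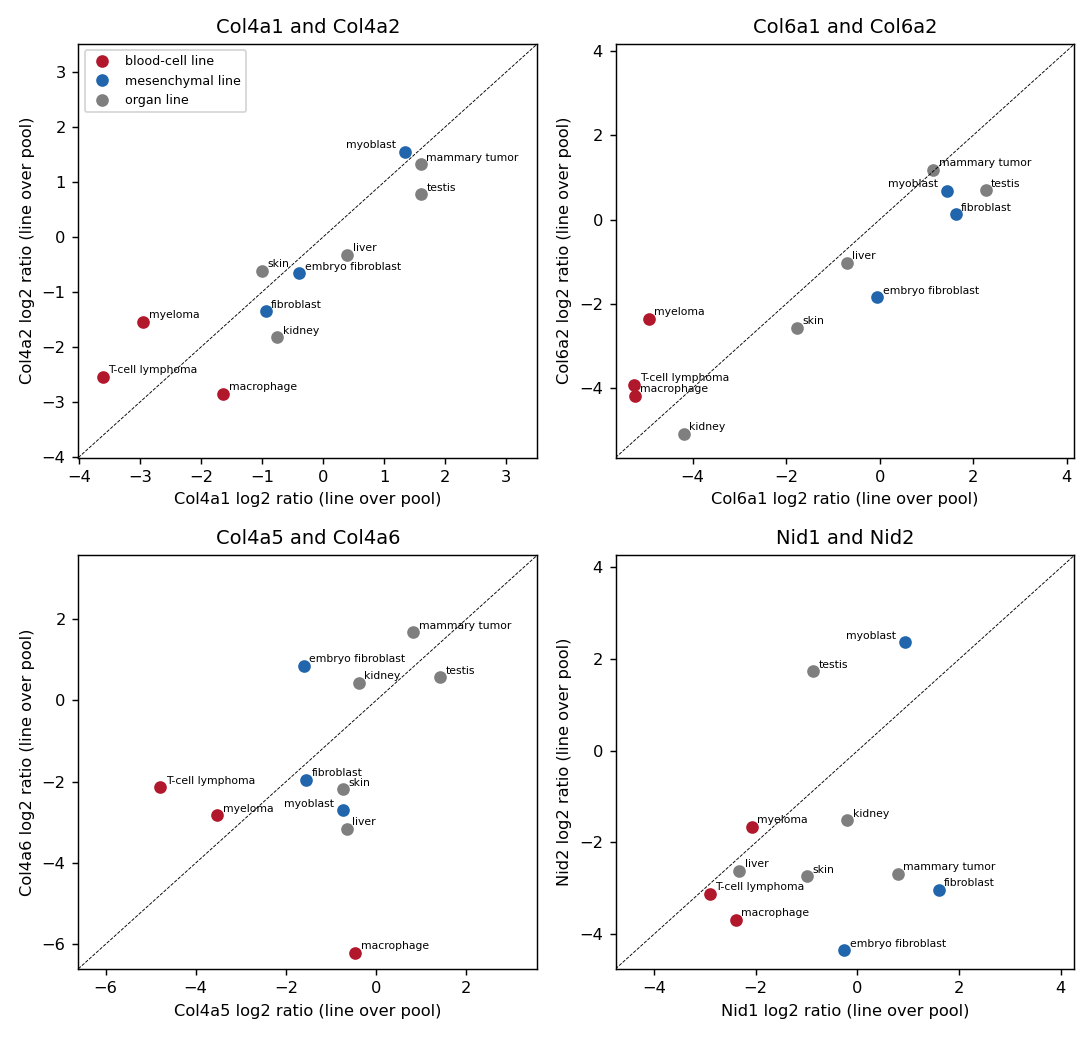
Log2 ratio of line over pool of the gene named on each axis, 1 point per cell line, coloured by lineage, with a dashed line of equal values. Col4a1 with Col4a2 (r = 0.87) and Col6a1 with Col6a2 (r = 0.90) lay along the diagonal, while Col4a5 with Col4a6 (r = 0.32) and Nid1 with Nid2 (r = 0.26) scattered.

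The collagen IV promoters are shown because their arrangement differs between these pairs. The windows are drawn and marked as for Lamb1, from GRCm38.p6: chr8:11312777-11313076 on the minus strand for Col4a1, chr8:11312555-11312854 on the plus strand for Col4a2, chrX:141475169-141475468 on the plus strand for Col4a5 and chrX:141474027-141474326 on the minus strand for Col4a6. The starts of Col4a1 and Col4a2 lie 21 bases apart on opposite strands, so their windows share 78 bases. The starts of Col4a5 and Col4a6 lie 1343 bases apart on opposite strands, with no shared base in these windows.
Col4a1: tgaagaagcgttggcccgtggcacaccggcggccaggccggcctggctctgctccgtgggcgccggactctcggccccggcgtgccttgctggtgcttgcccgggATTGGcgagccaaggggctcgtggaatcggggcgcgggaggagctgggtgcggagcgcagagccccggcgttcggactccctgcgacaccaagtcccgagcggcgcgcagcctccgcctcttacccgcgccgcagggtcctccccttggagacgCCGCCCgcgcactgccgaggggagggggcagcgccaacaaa
Col4a2: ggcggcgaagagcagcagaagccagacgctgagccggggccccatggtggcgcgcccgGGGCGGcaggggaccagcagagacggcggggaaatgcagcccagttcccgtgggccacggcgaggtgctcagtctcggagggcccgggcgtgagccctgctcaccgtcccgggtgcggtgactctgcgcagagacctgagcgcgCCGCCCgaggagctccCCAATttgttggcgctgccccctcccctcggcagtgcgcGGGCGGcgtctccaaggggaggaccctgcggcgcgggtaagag
Col4a5: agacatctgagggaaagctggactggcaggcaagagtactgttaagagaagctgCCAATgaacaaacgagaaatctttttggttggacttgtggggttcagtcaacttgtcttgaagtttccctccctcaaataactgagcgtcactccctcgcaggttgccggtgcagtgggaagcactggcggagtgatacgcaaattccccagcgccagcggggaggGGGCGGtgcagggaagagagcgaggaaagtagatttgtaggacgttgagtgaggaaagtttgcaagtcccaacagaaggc
Col4a6: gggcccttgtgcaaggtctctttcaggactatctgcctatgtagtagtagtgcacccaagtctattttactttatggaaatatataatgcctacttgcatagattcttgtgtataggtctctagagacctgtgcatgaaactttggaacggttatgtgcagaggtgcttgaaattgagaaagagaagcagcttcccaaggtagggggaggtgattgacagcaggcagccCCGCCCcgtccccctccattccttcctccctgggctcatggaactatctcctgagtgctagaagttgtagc

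RefSeq windows were matched for 36 of the 52 genes, with 44 windows. GGGCGG was found in 59.1% of these and in 35.7% of all 32851 windows, CCAAT in 34.1% and 37.4%, and TATAAA in 15.9% and 13.6%. Of the 9 genes lower in the blood-cell lines 7 had a window, of which 6 held GGGCGG, 3 held CCAAT and 0 held TATAAA. These are matches of letters and show no binding.

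Genes with several probes gave an internal check. The Tnc probes had r = 0.90 over the 11 lines, with a widest gap in T-cell lymphoma (-4.10 and -1.45), and only probe 5171 was called outside macrophage. The Col6a3 probes had r of 0.65 to 0.81. Those of Lama3, a chain of epithelial laminin, had r of -0.20 to 0.38, those of Col11a1 0.41 and those of Lama1 0.35.

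A group of 14 probes (23.7%, against 30.1% of all features) had an SD over the lines under 0.5. It held Lamc1, which encodes the gamma chain shared by most laminins, along with Lama1, Lamc3, Col4a4, Col7a1, Col17a1 and elastin. Each probe's values were set against the median of the 25 probes on each side by probe number. Over the lines r was above 0.5 for 10 of the 14, with a median of 0.60, and went from -0.40 (Lamc3) and 0.26 (Col17a1) to 0.94 (Lamc1). Of the other 45 members 19 had r above 0.5, with a median of 0.42, 0.84 for Lama2 and up to 0.95 for Col14a1. Among these, the 9 members lower in the blood-cell lines had r between -0.37 and 0.33. Lamb1 and Lamc1, chains of the same laminin, had r = 0.03, and in T-cell lymphoma Lamb1 was -4.19 while Lamc1 was -0.12. Counts with this local median removed are given with the dependence on the processing. Beyond that refit, the part of the neighbouring probes in the members' values was not tested.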

How the data were processed

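The 14 arrays had 2 colours, with RNA of 1 of 11 mouse lines in Cy5 and the pool in Cy3, per the labels. The deposited values are log2 ratios, by the reading below. How the authors corrected background, normalized and filtered spots is not stated in the labels or the file header, nor are sign, log base and centring. With equal pooling the mean unlogged ratio over the lines would be 1. Its median was 1.003 read as log2 of line over pool and 1.20 with the sign turned, and in the most variable decile 0.923 and 3.11. Natural logs gave 1.07 and 1.18, so base 2 is an assumption on which the folds rest.

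The 80 Gapdh spots were averaged, 423 of 107520 cells were empty, and the test covered the 7423 features that every line measured. Col4a3 on mammary tumor array 2 and Matn1 on myeloma array 2 were empty, so 1 array gave those lines' value. limma 3.58.1 (R 4.3.3) was fitted over all features, 2-sided, with Benjamini-Hochberg adjustment and a threshold of 0.05. Lineages were compared on line means (8 residual degrees of freedom), and lines against the other 10 over all 14 arrays (3 residual degrees of freedom from the pairs; the lines with 1 array borrow this spread). Scripts were tested on simulated data. The number of arrays limits the precision. Array 1 minus array 2 correlated with r = 0.541, 0.379 and 0.330 between the 3 repeated lines over 7401 features. Array numbers were therefore treated as pairing samples in 1 alternative, the replicate block. The main tests of single lines did not model this pairing, so their p-values do not account for it. The pairing comes from the data and not from the labels, and in the replicate block lone arrays were taken with the first arrays.

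Members and lists were chosen with earlier results of these data known. Named were called members, the extremes of each family and preset pairs. Probes of 1 gene were kept apart. Alternatives were centring, quantile normalization, a robust trend, image runs or array numbers as blocks, left-out arrays and lines, and, chosen after seeing the data, removal of the local median by probe number. Platform symbols were matched to RefSeq (GRCm38.p6) by gene identifier, and promoter windows come from RefSeq. The array's own build is not stated in the labels.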

Additional observations from a re-analysis of the deposited data

Results flagged for a closer look

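Among the 8 lines outside the blood-cell group, 23 members called in some comparison were examined for a line far from the others, and 3 stood apart. Chance gives about 1 in 20 among groups not chosen for a difference, a rate that does not apply to these members, which had been called for the difference of a line or of the blood-cell lines. Lama3 (probe 1447) was -2.401 in embryo fibroblast, with the other lines between -0.769 and 0.194. The other probes of Lama3 were -0.11 and -0.63 there, and the median of that array was -0.50. Col6a3 (probe 4675) was 1.742 in mammary tumor, with the other lines between -1.326 and -0.242, and its arrays gave 1.83 and 1.65. Lamb1 was -2.365 in liver (1 array), with the other lines between 0.05 and 2.066.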

How the results depend on the processing

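No call of a named member changed direction in 783 tests under alternatives. Of these, 586 kept the call and 197 lost it, and 8 of 57 calls held in every alternative. The 22 medians tried for lines stayed within the spread between arrays. That spread, an SD of 0.74 for single probes within a pair, is a wide limit for a median over 59 probes. With arrays centred, the members' median went from -0.63 to -0.12 in embryo fibroblast and from -0.76 to -0.35 in kidney. Both then lay above myeloma (-0.56). Counts below are of member probes and are given here without the share of all features called in the same setting. They do not show whether a setting moved the members more than the array as a whole.

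Blood-cell lines against the other 8: the count lower (9) was 2 with quantile normalization, 16 with image runs as a block and 2 to 10 with an array or line left out. The setting with image runs used arrays weighted equally per line in place of line means, so it differs in the unit as well. The count higher (0) was 1 with image runs as a block, 1 with the local median removed and 0 to 1 with one left out. Mesenchymal against organ lines stayed at 0 in every setting.

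Lines against the other 10, with quantile normalization: higher, mammary tumor 11 (7 in the report), liver 1 (0) and embryo fibroblast 1 (2); lower, mammary tumor 2 (0), liver 1 (0), macrophage 4 (9), embryo fibroblast 1 (3) and T-cell lymphoma 3 (9). With arrays centred, lower calls were 1 in mammary tumor and 1 in embryo fibroblast. With image runs as a random block (estimated correlation 0.470), higher calls were 3 in mammary tumor, 1 in liver, 1 in macrophage, 6 in fibroblast, 13 in testis, 13 in myoblast, 9 in embryo fibroblast, 1 in T-cell lymphoma and 8 in kidney. Lower calls were 5 in liver, 23 in macrophage, 2 in fibroblast, 2 in testis, 9 in embryo fibroblast, 21 in T-cell lymphoma and 5 in kidney. With the local median by probe number removed, chosen after seeing the data, higher calls were 1 in liver, 1 in macrophage, 1 in myeloma, 7 in myoblast and 2 in kidney, and lower calls 1 in mammary tumor and 2 in fibroblast.

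With the array number as a replicate block, higher calls were 14 in mammary tumor, 1 in liver, 1 in macrophage, 7 in testis, 15 in myoblast, 6 in embryo fibroblast and 4 in kidney. Lower calls under this replicate block were 1 in mammary tumor, 15 in macrophage, 5 in fibroblast, 16 in myeloma, 7 in embryo fibroblast, 18 in T-cell lymphoma and 4 in kidney. No other count moved by over 1.5 times, and the line-mean comparisons carry no array number to block.

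With 1 array left out, higher calls ranged from 0 to 10 in mammary tumor, 0 to 3 in fibroblast, 0 to 3 in testis, 0 to 1 in myeloma, 0 to 10 in myoblast and 0 to 4 in embryo fibroblast. Lower calls ranged from 0 to 1 in mammary tumor, 5 to 12 in macrophage, 0 to 1 in fibroblast, 0 to 13 in myeloma, 0 to 5 in embryo fibroblast and 4 to 15 in T-cell lymphoma. The cause of these changes was not tested. The spread of lone arrays is unmeasured, and 3 pairs carry all line tests.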

Other observations

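Col5a2 and Tnc (probe 5171), a pair chosen after the values were seen, had r = 0.88 over the 11 lines and 0.76 over the 8 outside the blood-cell group. Nid2 and Col12a1, chosen in the same way, had r = 0.78 in both sets, with both genes above the pool in myoblast and testis. In mammary tumor they parted, with -2.69 for Nid2 and 2.00 for Col12a1. Fbln5, the fibulin of elastic fibre assembly, was 2.10 in embryo fibroblast, 1.64 in kidney and 1.40 in testis, and -3.84 and -3.58 on the mammary tumor arrays. Under equal pooling the shares of Col5a2 over the lines summed to 157.6%, with 52.5% from mammary tumor, and those of Col3a1 to 53.5%.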
